A study of Mus musculus with 4 samples.

Results

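The D-type cyclins Ccnd1, Ccnd2 and Ccnd3 and the kinase gene Cdk6 were followed by symbol through the authors' 6 deposited tables of RNA-seq from G1E cells. All 4 genes were found, among 2982 genes named in at least 1 table and 12931 genes that the authors tested. G1E is a mouse erythroblast line derived from cells that lack GATA-1, the zinc finger transcription factor of red cell maturation. The 4 groups are G1E cells that carry the wild-type form (GATA-1 WT), the GATA-1 2RA form or the GATA-1 V205M form, and a G1E control. The V205M change is known to disturb the contact with the cofactor FOG-1, and what the 2RA form alters is not stated in the labels. All 4 groups share the line and carry the label of β-estradiol induction (spelled β-estrodiol there), for which the sources used here give no time. The labels also do not say how the forms were introduced or whether the control carries an empty vector. Each group is 1 sample, so no difference between groups has a replicate check, and all 4 come from the same line.

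D-type cyclins are the regulatory subunits of Cdk4 and Cdk6, and the active kinases phosphorylate the retinoblastoma protein in G1, which frees E2F factors to switch on S phase genes. The 3 D-type cyclins are products of separate genes that respond to growth factor receptors such as Kit. In erythroid cells Ccnd3 is known for its part in the number of divisions before terminal maturation, and loss of Cdk6 in mice impairs red cell production.

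A level is given in scaled reads, which are reads divided by a size factor of their library. The authors listed a gene for a pair of groups when its fold was above 2 and its adjusted p under 0.01. The level of a member in a pair where it was not listed comes from the other tables, and all 4 members had a level in every group. The G1E control and GATA-1 V205M levels are each a mean over 2 count columns, which the labels do not explain. GATA-1 WT and GATA-1 2RA have 1 count column each. The authors' adjusted p-values between these 2 groups thus had no spread within either group to draw on. A fold below is the ratio of the pooled reads of 2 groups, scaled by their size factors, with an exact 95% interval that covers counting error only. In bulk samples, fewer cells that express a gene and less RNA per cell cannot be told apart.

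As a check of the labels, Gata1 stood at 2652 scaled reads in GATA-1 WT cells, 1421 in GATA-1 2RA cells, 613 in GATA-1 V205M cells and 153 in the G1E control. Gata1 was therefore lowest in the control, and the forms also differed among themselves in Gata1 RNA, for which the labels give no order. Esr1, the estrogen receptor gene, had 58.6 scaled reads in GATA-1 WT cells, 43.6 in GATA-1 2RA cells, 13.3 in GATA-1 V205M cells and 1.83 in the control. Over the genes of the tables, the recovered reads per count column were between 276064 and 2178397, and the lowest count was 1 in every column. Of 10 erythroid markers, 9 had a level in every group, and their summed level was 69788 scaled reads in GATA-1 WT cells, 4277 in GATA-1 2RA cells, 4236 in GATA-1 V205M cells and 3393 in the control. These sums rest on a few abundant genes. All 9 were listed as higher in GATA-1 WT against the control, but in each mutant against the control 3 of the 5 listed erythroid markers were lower, with median log2 changes of -1.26 for GATA-1 2RA cells and -1.37 for GATA-1 V205M cells. Hba-a1, an alpha-globin gene, had 32.9 scaled reads in GATA-1 2RA cells, 38.9 in GATA-1 V205M cells and 1291 in the control. Of 10 mast cell markers, 6 had a level in every group, and they summed to 237, 2912, 3749 and 6221 scaled reads in GATA-1 WT cells, the 2RA form, the V205M form and the control. The control's sum is made mostly of Cpa3, a mast cell protease gene, at 2795 scaled reads and Kit at 2429. Cpa3 had 14.6 scaled reads in GATA-1 V205M cells. The mutants' sums are made mostly of Kit and Gata2, with 2218 and 514 in GATA-1 2RA cells and 1440 and 1316 in GATA-1 V205M cells. In GATA-1 V205M against the control, 3 of the 4 listed mast cell markers were higher, namely Tpsab1 (log2 change 3.08), Hdc (2.00) and Ms4a2 (1.45), and Cpa3 was lower. In GATA-1 2RA against the control 1 of the 3 listed was higher, and in GATA-1 WT against the control all 6 were lower. Of the remaining lists of 10 markers each, the megakaryocyte list had 3 genes in any table, and the neutrophil and macrophage list and the lymphocyte list had 0. The part of these marker and Gata1 differences in the results below was not tested.

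Ccnd3 has a near-identical relative in the tables that bears on every Ccnd3 value. Ccnd3 lies on the plus strand at chr17:47505051-47599691 (GRCm38, GENCODE M21), and Ccnd3-ps is a processed pseudogene of 881 bases in a single exon on the minus strand at chr4:139345300-139346180. Aligned with the coding part of a protein-coding Ccnd3 transcript, Ccnd3-ps matched in 848 of 881 alignment columns (96.25%), with 31 mismatches, 2 gap columns and a longest identical run of 89 bases. The stretch of 90 bases with the most mismatches between them is shown because it holds the letters by which a read could be placed. It covers bases 267 to 356 of that transcript, within the coding part, and bases 62 to 151 of Ccnd3-ps, both 5′ to 3′ on their own strand, with the 7 mismatches in capitals.
Ccnd3: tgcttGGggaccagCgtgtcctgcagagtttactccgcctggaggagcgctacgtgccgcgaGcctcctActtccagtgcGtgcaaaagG
Ccnd3-ps: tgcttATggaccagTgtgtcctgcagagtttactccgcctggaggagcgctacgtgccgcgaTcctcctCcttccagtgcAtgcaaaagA
Even this stretch is mostly the same in both, and the stretch of 90 bases with the fewest mismatches has only 1. Reads could thus be placed on either row by the authors' counting, and Ccnd3 values are uncertain to that extent.

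Promoter windows of 300 bases from RefSeq (GRCm38.p6), most of each before an annotated start, were found for 2 of the 4 members, with 2 windows for Ccnd3 and 1 for Cdk6. They are shown because GATA-1 binds DNA at GATA words and Myc binds at the E-box CACGTG, and no binding was measured here. Both are read 5′ to 3′ on the plus strand, the first at chr17:47504801-47505100 and the second at chr5:3343643-3343942, with the E-box in capitals.
Ccnd3 promoter: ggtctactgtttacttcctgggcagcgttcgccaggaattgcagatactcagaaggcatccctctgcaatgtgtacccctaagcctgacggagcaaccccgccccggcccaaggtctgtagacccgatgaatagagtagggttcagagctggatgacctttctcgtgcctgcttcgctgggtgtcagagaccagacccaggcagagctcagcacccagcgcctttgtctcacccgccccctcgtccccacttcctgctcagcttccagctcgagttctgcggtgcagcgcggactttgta
Cdk6 promoter: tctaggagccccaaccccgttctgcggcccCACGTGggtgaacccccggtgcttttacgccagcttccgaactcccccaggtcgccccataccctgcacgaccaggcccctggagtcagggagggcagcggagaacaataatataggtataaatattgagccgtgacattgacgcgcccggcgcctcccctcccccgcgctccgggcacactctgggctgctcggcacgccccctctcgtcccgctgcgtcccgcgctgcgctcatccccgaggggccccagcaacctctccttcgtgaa
The GATA words searched were AGATAA or AGATAG, and the same words with T as first letter, TGATAA or TGATAG. None of the 3 windows held any of them on either strand, and 29.8% of 32851 mouse promoter windows of the same length held at least 1 of these words. The E-box was found once, in the Cdk6 window, 220 bases upstream of the start. It occurs in 7.15% of the promoter windows. These matches describe letters only and say nothing of binding.

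Ccnd3 was high with wild-type GATA-1 and low with GATA-1 V205M. Its level was 1705 scaled reads in GATA-1 WT cells, 440 in GATA-1 2RA cells, 64.3 in GATA-1 V205M cells (64.5 and 64.1 in its count columns) and 347 in the G1E control (358 and 336). With the authors' size factors the values of the count columns did not overlap between groups, but GATA-1 WT and GATA-1 2RA have 1 column each. GATA-1 2RA and the control were close, and their order depended on the size factors used. Ccnd3 was 4.83-fold higher (4.40 to 5.31) in GATA-1 WT cells than in the control, with an adjusted p of 1.12e-36 in the authors' deposited table. It was 5.49-fold lower (4.55 to 6.66) in GATA-1 V205M cells than in the control, with an adjusted p of 2.45e-39 in the authors' deposited table. Wild-type GATA-1 and GATA-1 V205M thus stood on opposite sides of the control for this gene.

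Both mutant forms had less Ccnd3 RNA than GATA-1 WT. The fold was 3.87 lower (3.55 to 4.24) in GATA-1 2RA cells and 26.5 lower (22.4 to 31.7) in GATA-1 V205M cells. Between the mutants, Ccnd3 was 6.84-fold higher (5.69 to 8.29) in GATA-1 2RA cells than in GATA-1 V205M cells. All 3 differences were listed, with adjusted p-values of 1.24e-23, 1.31e-148 and 2.03e-45 in the authors' deposited tables. GATA-1 2RA against the control gave 1.25-fold (1.11 to 1.40) and was not listed, and its direction depended on the size factors used.

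Ccnd3-ps followed Ccnd3, with 421 scaled reads in GATA-1 WT cells, 134 in GATA-1 2RA cells, 17.5 in GATA-1 V205M cells and 82.5 in the control. It was listed in the same 5 pairs. Of the reads on both rows, Ccnd3-ps held 19.8% (18.5 to 21.2, exact binomial) in GATA-1 WT cells, 23.4% (20.5 to 26.5) in GATA-1 2RA cells, 21.9% and 20.99% in the columns of GATA-1 V205M, and 19.0% and 19.5% in those of the control. The share was thus about the same across groups that differed widely in Ccnd3 level. With the reads of both rows added, an alternative chosen after seeing the data, all 6 log2 changes kept their direction and moved by less than their counting intervals.

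**Figure D1:**
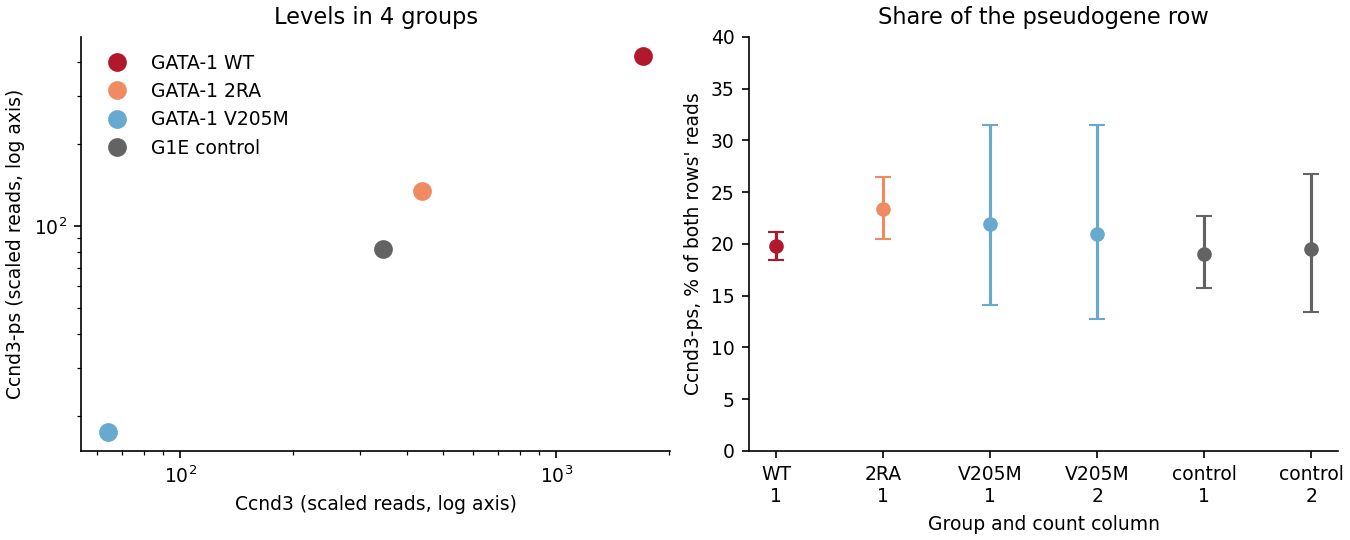
Left, level of Ccnd3-ps against Ccnd3 in scaled reads (both axes logarithmic), 1 point per group. Right, Ccnd3-ps as a percentage of the reads on both rows, 1 point per count column with its exact 95% binomial interval; the shares lie between 19.0% and 23.4% while the Ccnd3 level runs between 64.3 and 1705 scaled reads.

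Ccnd2 was low with wild-type GATA-1 and high with both mutant forms. Ccnd2 lies on the minus strand at chr6:127125162-127152193. Its level was 573 scaled reads in GATA-1 WT cells, 2910 in GATA-1 2RA cells, 3028 in GATA-1 V205M cells (3010 and 3047) and 2143 in the control (2380 and 1906). GATA-1 WT stood apart from the other 3 groups, which were within 1.5-fold of each other. Ccnd2 was 3.96-fold lower (3.68 to 4.27) in GATA-1 WT cells than in the control, with an adjusted p of 6.55e-19 in the authors' deposited table. It was 5.08-fold higher (4.73 to 5.47) in GATA-1 2RA cells than in GATA-1 WT cells and 5.29-fold higher (4.93 to 5.67) in GATA-1 V205M cells than in GATA-1 WT cells. The authors' deposited tables gave adjusted p-values of 8.95e-24 and 2.43e-28 for these. Against the control, the pooled folds were 1.28 (1.23 to 1.34) in GATA-1 2RA cells and 1.33 (1.28 to 1.39) in GATA-1 V205M cells, and neither was listed. The 2 columns of the control differ by about as much as these folds. GATA-1 2RA against GATA-1 V205M gave 0.961-fold (0.924 to 0.9998) and was not listed.

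Ccnd1 had almost no reads except in GATA-1 2RA cells. Ccnd1 lies on the minus strand at chr7:144929931-144939925. Its level was 0.630 scaled reads in GATA-1 WT cells, 54.3 in GATA-1 2RA cells, 2.43 in GATA-1 V205M cells and 3.11 in the control. These rest on 1 read in GATA-1 WT cells, 76 in GATA-1 2RA cells, 5 in GATA-1 V205M cells (1 and 4 in its count columns) and 5 in the control (4 and 1). The 3 low groups cannot be ordered at this depth, since each pair among them had an interval that included 1. Ccnd1 was 16.6-fold higher (6.79 to 52.5) in GATA-1 2RA cells than in the control, 86.2-fold higher (15.01 to 3449) than in GATA-1 WT cells and 23.5-fold higher (9.63 to 74.4) than in GATA-1 V205M cells. The authors' deposited tables listed all 3, with adjusted p-values of 0.000674, 8.26e-05 and 1.38e-05. The widest interval belongs to the ratio over the single read of GATA-1 WT. Against GATA-1 V205M the log2 change, with 1 scaled read added, was 4.01, but 4.89 with its count column 1 alone and 3.47 with column 2 alone. Whether the authors added 1 to every count or left out genes with 0 reads has no answer in the sources used here, so all 3 ratios hold for the deposited counts only.

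Cdk6, the kinase partner, was low with wild-type GATA-1, intermediate with GATA-1 V205M, and close to the control with GATA-1 2RA. Cdk6 lies on the plus strand at chr5:3341485-3531008. Its level was 40.3 scaled reads in GATA-1 WT cells, 218 in GATA-1 2RA cells, 83.3 in GATA-1 V205M cells (83.4 and 83.1) and 224 in the control (259 and 190). GATA-1 2RA lay between the 2 columns of the control. The values of the other groups did not overlap, but GATA-1 WT has 1 column. Against the control, Cdk6 was 6.02-fold lower (4.61 to 7.98) in GATA-1 WT cells and 2.91-fold lower (2.43 to 3.50) in GATA-1 V205M cells. Both were listed, with adjusted p-values of 2.47e-06 and 0.000252 in the authors' deposited tables. Cdk6 was 5.41-fold higher (4.12 to 7.19) in GATA-1 2RA cells than in GATA-1 WT cells and 2.62-fold higher (2.17 to 3.16) in GATA-1 2RA cells than in GATA-1 V205M cells, with adjusted p-values of 3.03e-05 and 0.00573 in the authors' deposited tables. GATA-1 V205M against GATA-1 WT gave 2.07-fold (1.54 to 2.79), which is above the fold limit, and was not listed. GATA-1 2RA against the control gave 0.898-fold (0.769 to 1.05) and was not listed.

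**Figure D2:**
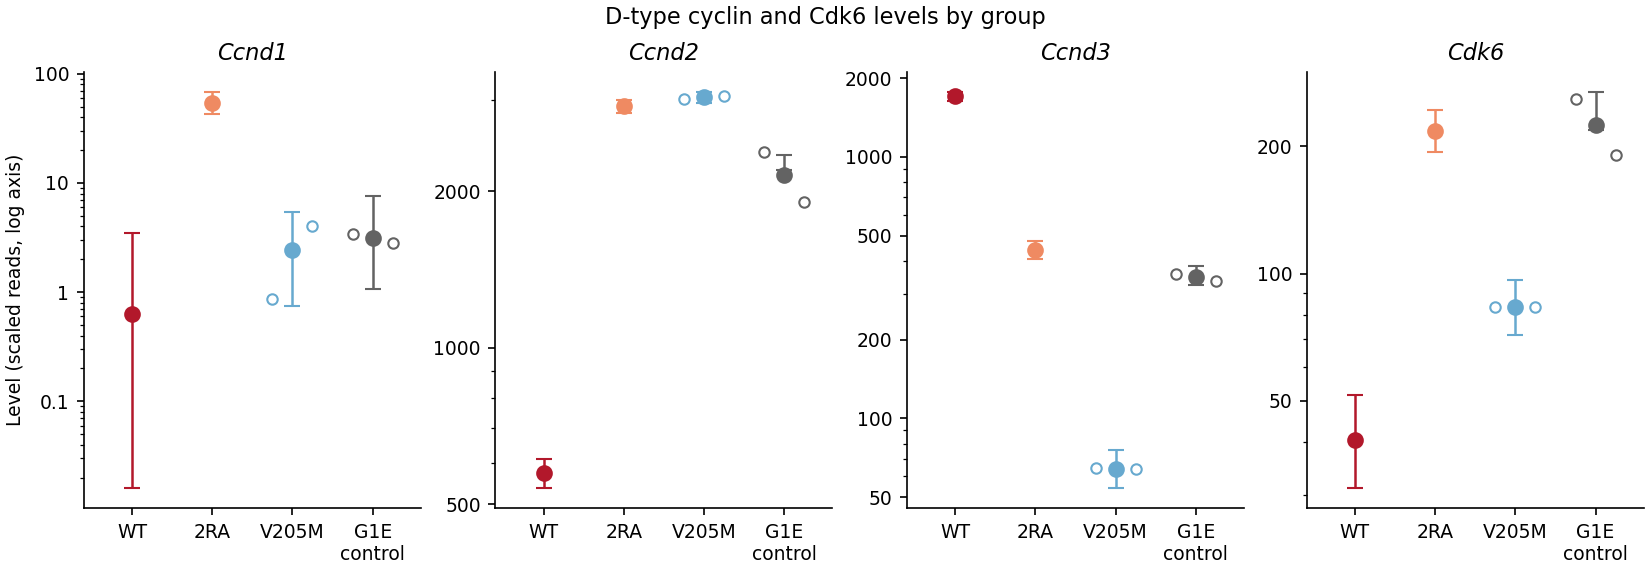
Levels of Ccnd1, Ccnd2, Ccnd3 and Cdk6 in scaled reads (logarithmic axes that differ between panels) in the 4 groups. Filled circles are the authors' group levels, open circles the 2 count columns where a group has them, and bars the exact 95% Poisson interval of the pooled reads, which weights the deeper column more; Ccnd3 is highest in GATA-1 WT cells at 1705 and Ccnd2 and Cdk6 are lowest there at 573 and 40.3.

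Set by pair, 15 of the 24 values of the 4 members were listed. In GATA-1 WT against the control, 3 of 4 members were listed (1 higher, 2 lower), against 13.0% of all genes tested. In GATA-1 2RA against the control 1 of 4 was listed (higher), with 7.46% of all genes, and in GATA-1 V205M against the control 2 of 4 (both lower), with 8.15%. In GATA-1 2RA against GATA-1 WT all 4 members were listed (3 higher, 1 lower), against 7.38% of genes. In GATA-1 V205M against GATA-1 WT it was 2 of 4 (1 higher, 1 lower), against 9.36%, and in GATA-1 2RA against GATA-1 V205M 3 of 4 (all higher), against 6.23%. The comparisons that share a group share its reads, so these counts are not independent of each other, and 4 genes are too few to read a share closely. The members were also chosen with earlier results of these data known. Only genes listed in at least 1 pair, 2982 of the 12931 tested, could be followed. The shares over all genes tested are therefore no fair background for these counts.

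Other size factors moved the values against GATA-1 WT and the control without changing a listed direction. These size factors came from the 1157 genes with a level in every group and not from whole libraries. Each of these genes was listed in some pair, among them Hbb-b1, with 39108 scaled reads in GATA-1 WT cells and 238 in the control. In GATA-1 WT against the control, total reads of these genes gave log2 changes of -2.63 (Ccnd2), 1.56 (Ccnd3) and -3.16 (Cdk6). With the authors' size factors they were -1.90, 2.29 and -2.45.

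The median log2 change of the 4 members, with 1 scaled read added to each level, was -1.62 in GATA-1 WT against the control, 0.39 in GATA-1 2RA cells and -0.84 in GATA-1 V205M cells. The medians over the 1157 genes with a level in every group were 0.86, 0.41 and 0.21 for the same comparisons. Those genes have their levels because they were listed as changed, and they include the members. They are therefore no background of unselected genes. Against GATA-1 WT, the members' median was 2.37 in GATA-1 2RA cells and 1.05 in GATA-1 V205M cells, beside -0.12 and -0.41 over those genes. In GATA-1 2RA against GATA-1 V205M it was 2.07, beside 0.21. In the 3 comparisons that involve GATA-1 WT the listed members did not share 1 direction, and a median hides that Ccnd3 ran opposite to Ccnd2 in GATA-1 WT cells and in both mutants when set against GATA-1 WT.

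**Figure D3:**
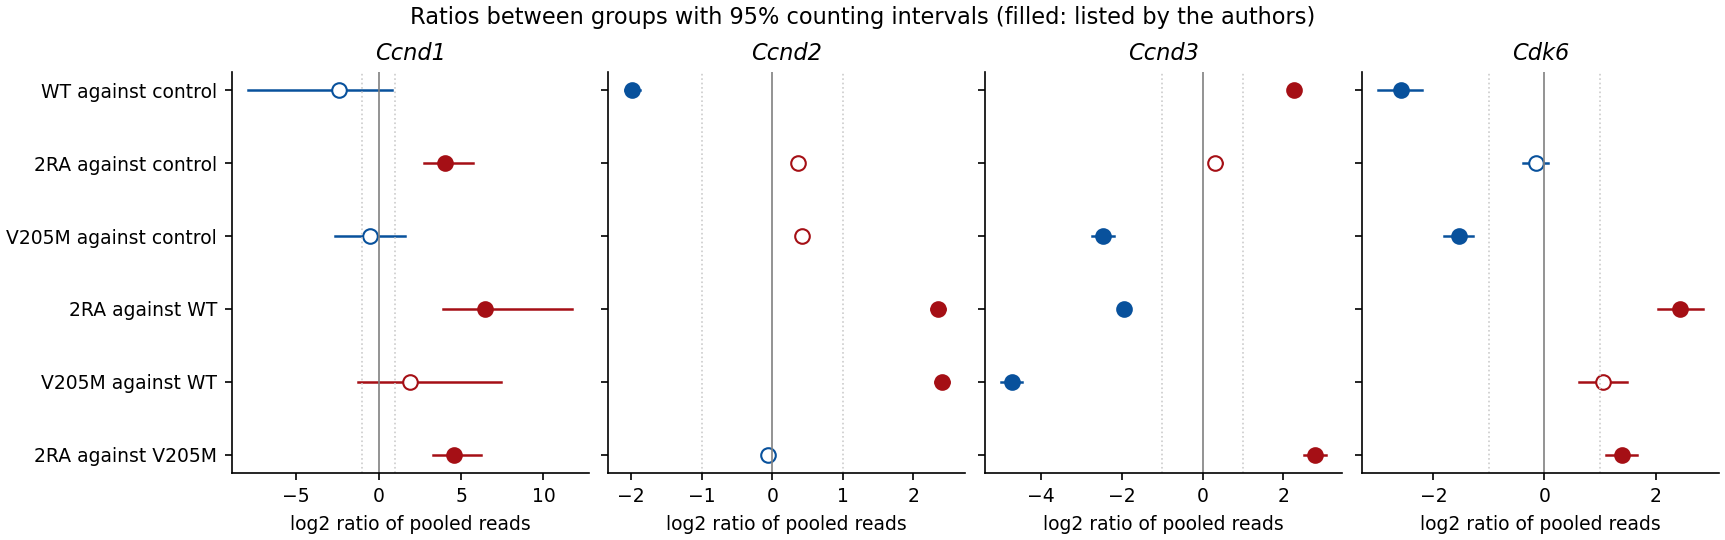
Log2 ratio of pooled reads for each member in the 6 pairs of groups, first-named group over second, with exact 95% counting intervals as lines; filled points were listed by the authors and dotted lines mark 2-fold. Ccnd1 is listed in the 3 pairs with GATA-1 2RA, and Ccnd3 in all pairs but GATA-1 2RA against the control.

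Levels of different genes were compared per kb of exon, using the union of annotated exons (4709 bases for Ccnd1, 9409 for Ccnd2, 8775 for Ccnd3 and 13989 for Cdk6). In GATA-1 WT, Ccnd3 made up 76.1% of the summed level per kb of the 3 D-type cyclins and Ccnd2 23.8%. Ccnd2 made up 83.4% in GATA-1 2RA cells, 97.6% in GATA-1 V205M cells and 85.0% in the control. Ccnd3 took 13.5%, 2.22% and 14.8% in these groups. GATA-1 WT was thus the group in which Ccnd3 exceeded Ccnd2 per kb, and this held for all 3 lengths tried. Ccnd1 was at most 3.11% of the sum, in GATA-1 2RA cells.

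The sum of the D-type cyclins per kb differed less between groups than its members did. It was 255 scaled reads per kb in GATA-1 WT cells, 371 in GATA-1 2RA cells, 330 in GATA-1 V205M cells and 268 in the control. The ratio of GATA-1 WT to the control was 0.953 with union exons, 1.24 with the longest transcript and 1.78 with the longest protein-coding transcript, so no direction can be given for the sum. Cdk6 stood at 2.88 scaled reads per kb in GATA-1 WT cells, 15.6 in GATA-1 2RA cells, 5.95 in GATA-1 V205M cells and 16.0 in the control. Per kb, the D-type cyclins summed to 88.6 times Cdk6 in GATA-1 WT cells, 23.8 times in GATA-1 2RA cells, 55.4 times in GATA-1 V205M cells and 16.7 times in the control. These ratios depend on the length used. With the longest transcript they were 152, 31.1, 68.6 and 22.0 in the same order, and with the longest protein-coding transcript 257, 36.1, 70.5 and 25.9. Cdk4, the other kinase that binds D-type cyclins, was not listed in any table and has no level here.

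**Figure D4:**
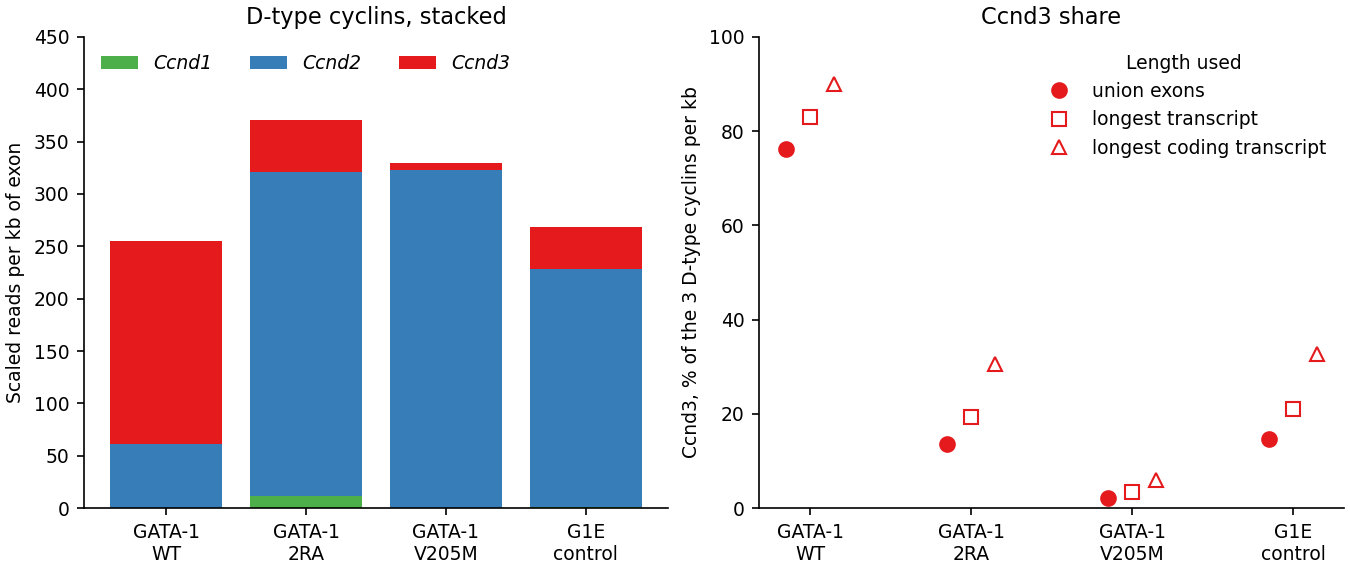
Left, scaled reads per kb of union exon of Ccnd1, Ccnd2 and Ccnd3, stacked, in each group; the bars start at 0. Right, Ccnd3 as a percentage of the 3 genes per kb with each of 3 lengths; it is 76.1% or more in GATA-1 WT cells and 32.6% or less in the other 3 groups.

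The likeness of profiles was measured as the root mean square distance between centred log2 levels over the 4 groups, which is a description over 4 points. Among the members, Ccnd2 and Cdk6 were closest (0.71) and Ccnd1 and Ccnd3 farthest apart (2.67). The genes nearest to Ccnd2 were Gm12799 (0.099), Sipa1l1 (0.14) and Trim26 (0.14), and Sipa1l1 had 190, 778, 795 and 651 scaled reads in GATA-1 WT cells, the 2RA form, the V205M form and the control. Those nearest to Cdk6 were Nbeal2 (0.14), Lamc1 (0.18), which encodes a laminin chain, and Sfxn3 (0.22). Lamc1 had 41.6 scaled reads in GATA-1 WT cells, 270.1 in GATA-1 2RA cells, 117 in GATA-1 V205M cells and 317 in the control.

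Nearest to Ccnd3 were its pseudogene Ccnd3-ps (0.14), 2210020M01Rik (0.28) and St3gal2 (0.30), a sialyltransferase gene, which had 768 scaled reads in GATA-1 WT cells, 244 in GATA-1 2RA cells, 47.3 in GATA-1 V205M cells and 155 in the control. Nearest to Ccnd1 were 2610018G03Rik (0.30), Cd300lh (0.32) and Cap2 (0.33), an actin regulator gene. These 3 had between 37.9 and 48.6 scaled reads in GATA-1 2RA cells and at most 2.68 in any other group. Where levels rest on 1 read, as for all 3 in GATA-1 WT cells, the distance reflects the single read as much as the gene.

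The other genes of the pathway were taken from 7 lists with 101 genes in all, chosen with earlier results of these data known. Of these, 22 were listed in GATA-1 WT against the control (15 higher, 7 lower), with a median log2 change of 1.38 over the listed ones, beside 1.23 over all listed genes. In GATA-1 2RA against the control 6 were listed (4 higher, 2 lower), and in GATA-1 V205M against the control 4 (3 higher, 1 lower). Against GATA-1 WT, 16 were listed in GATA-1 2RA cells (4 higher, 12 lower) and 20 in GATA-1 V205M cells (6 higher, 14 lower). In GATA-1 2RA against GATA-1 V205M, 9 were listed (4 higher, 5 lower). Of all genes tested, 13.0% were listed in GATA-1 WT against the control, 7.46% in GATA-1 2RA cells and 8.15% in GATA-1 V205M cells. Against GATA-1 WT the shares were 7.38% in GATA-1 2RA cells and 9.36% in GATA-1 V205M cells. For GATA-1 2RA against GATA-1 V205M the share was 6.23%. A gene that was not listed was either within the authors' limits or not tested, so these counts are no count of unchanged genes.

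Of 21 Cdk partners and Rb pathway genes, 2 were listed in GATA-1 WT against the control, both higher. That is near the 13.0% of all genes tested for a list of this size. Ccne1, which encodes cyclin E1, the partner of Cdk2 at the start of S phase, had 257 scaled reads in GATA-1 WT cells, 20.7 in GATA-1 2RA cells, 68.1 in GATA-1 V205M cells and 35.4 in the control (log2 change 2.82 in GATA-1 WT cells). Tfdp2, which encodes a dimer partner of E2F factors, had 197, 46.4, 59.4 and 65.8 scaled reads in the same order (log2 change 1.57). Both were lower in each mutant than in GATA-1 WT cells, as listed. In GATA-1 V205M against GATA-1 WT, 6 genes of this list were listed, beside 9.36% of all genes tested. Rb1 (log2 change -1.11), E2f2 (-1.20) and E2f8 (-1.81) were lower there, and E2f4 (1.16) was higher.

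Of 7 Cdk inhibitor genes, 1 was listed in GATA-1 WT against the control, beside 13.0% of all genes tested. Cdkn1b, which encodes p27, had 449.7 scaled reads in GATA-1 WT cells, 139 in GATA-1 2RA cells, 109 in GATA-1 V205M cells and 65.0 in the control. It was higher in GATA-1 WT cells than in the control by 2.77 on the log2 scale and in GATA-1 2RA cells than in the control by 1.08, and lower in both mutants than in GATA-1 WT cells. Cdkn1a, which encodes p21, was listed in 1 pair, with 1207 scaled reads in GATA-1 2RA cells and 475 in the control (log2 change 1.34). Cdkn2c, an inhibitor of Cdk4 and Cdk6, was listed as lower in GATA-1 V205M cells than in GATA-1 WT cells, with 60.4 against 130 scaled reads.

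Of 14 upstream signals and factors, 8 were listed in GATA-1 WT against the control (3 higher, 5 lower), beside 13.0% of all genes tested. Gata2, an early factor of the same family, had 54.8 scaled reads in GATA-1 WT cells, 514 in GATA-1 2RA cells, 1316 in GATA-1 V205M cells and 773 in the control (log2 change -3.79 in GATA-1 WT cells). Kit, the stem cell factor receptor, had 179, 2218, 1440 and 2429 scaled reads in the same order (log2 change -3.76). Myb, a progenitor factor, and Stat5a, which acts below cytokine receptors, were also lower in GATA-1 WT cells than in the control. Their log2 changes were -2.23 and -2.18. Myc was the remaining gene listed as lower, with 152 scaled reads in GATA-1 WT cells and 530 in the control (log2 change -1.79). It had 572 scaled reads in GATA-1 V205M cells, listed as higher than in GATA-1 WT cells, and no level in GATA-1 2RA cells. Gata2, Kit, Myb and Stat5a were each listed as higher in both mutants than in GATA-1 WT cells, as Ccnd2 was. Stat5b, Klf1 and Pim1 were the 3 listed as higher in GATA-1 WT cells than in the control, by 1.01, 1.62 and 1.96. Stat5b, unlike Stat5a, was also listed as higher than the control in GATA-1 2RA cells (1.32) and GATA-1 V205M cells (1.30).

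Pim1, a kinase gene downstream of Stat5, is given because it stood on both sides of the control, a choice made after its values were seen. It had 556 scaled reads in GATA-1 WT cells, 373 in GATA-1 2RA cells, 49.2 in GATA-1 V205M cells and 142 in the control. It was listed as higher than the control in GATA-1 WT cells (log2 change 1.96) and GATA-1 2RA (1.38) and as lower in GATA-1 V205M cells (-1.51).

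Of 18 other cyclins, 6 were listed in GATA-1 WT against the control, all higher, with a median log2 change of 1.45, against 13.0% of all genes tested that were listed in either direction. The other 12 are in no table, and Ccnf and Ccnl2 are known through this pair alone, so the 6 are not a sample of the family. Ccna2, the cyclin of S and G2 phase, had 5412 scaled reads in GATA-1 WT cells, 1355 in GATA-1 2RA cells, 2662 in GATA-1 V205M cells and 923 in the control (log2 change 2.55 in GATA-1 WT cells). Ccng2, whose product is known from growth arrest, had 110.2, 24.3, 18.8 and 14.9 scaled reads in the same order (log2 change 2.81). Ccnb1, a mitotic cyclin gene, and Ccnf were higher in GATA-1 WT cells by log2 changes of 1.498 and 1.40. Of 13 other Cdk genes, 1 was listed in this pair, beside 13.0% of all genes tested. It was Cdk19, a kinase of the Mediator module (log2 change 1.17).

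Of 8 genes of D-cyclin turnover, 2 were listed in GATA-1 WT against the control, beside 13.0% of all genes tested. Cul4a, a ubiquitin ligase scaffold, was higher, with 719.9 scaled reads in GATA-1 WT cells, 226 in GATA-1 2RA cells, 685 in GATA-1 V205M cells and 143 in the control. Skp2, an F-box protein gene, was lower, with 23.9 scaled reads in GATA-1 WT cells and 75.6 in the control. Of 20 E2F-linked S phase genes, 2 were listed in this pair, which is near that share for a list of this size. Cdc6 was higher (log2 change 2.52) and Cdt1 was lower (-1.26), and both are known to load the replicative helicase at origins.

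**Figure D5:**
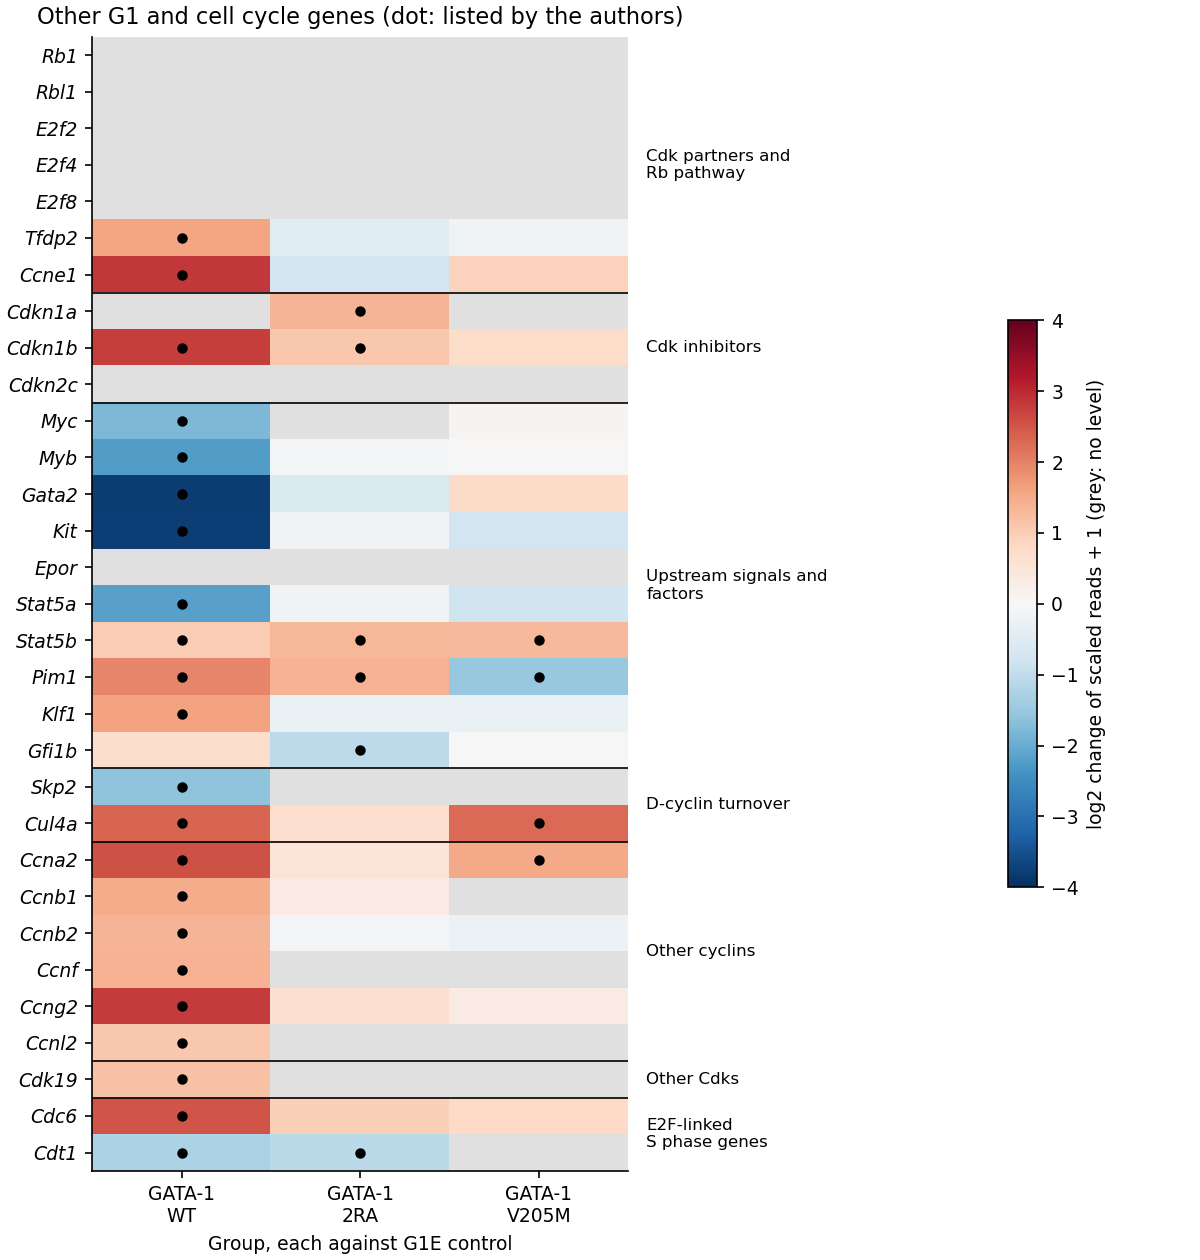
Log2 change of scaled reads plus 1 in the GATA-1 WT, 2RA and V205M groups, each against the G1E control, for the genes of the 7 lists found in any table. Colour runs between -4 and 4, dots mark pairs listed by the authors, and grey marks a gene with no level in 1 of the groups; 22 genes carry a dot in the GATA-1 WT column, 6 in that of GATA-1 2RA and 4 in that of GATA-1 V205M.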

How the data were processed

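Libraries of 4 samples, 1 per group, came from a TruSeq RNA sample kit, per the labels' protocols. TopHat, Cufflinks, Cuffdiff, deepTools and mm10 are named in the submitters' processing notes, without versions or roles. Each of 6 deposited tables holds a signal per group, which the values show to be reads over a size factor. The authors' ratio (fold) and log2 value follow from these signals, beside the authors' p-value and its adjusted value. Only genes past the authors' limits are in a table. The number of tested genes was derived from the ratio of p to adjusted p in 5 tables and assumed for GATA-1 2RA against GATA-1 V205M, whose values have fewer digits.

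Whole reads came out for 100.0% of each group's values, within a relative tolerance of 1e-10 (1e-08 in the table with fewer digits). The columns of G1E control and GATA-1 V205M were found this way, and whether they are cultures or runs has no answer in the sources used here. The authors' adjusted p-values may treat them as replicates. Intervals are exact 95% intervals of pooled reads. PCR reads without molecular identifiers are not independent molecules, so they cover counting error only. Lengths and coordinates came from GENCODE M21, and symbols also through RefSeq synonyms.

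The members and lists were chosen with earlier results of these data known. Named genes were the 4 members, Gata1 and Esr1, up to 4 genes per list with the largest log2 change in GATA-1 WT against the control, and the 3 nearest profiles per member, among 1157 genes with a level in every group and 10 or more scaled reads in the highest. Other list genes were named after their values were seen. Alternatives were other pseudocounts (0.5 and 10), size factors, single count columns, 4-fold limits, other lengths, and edgeR 4.0.16 quasi-likelihood fits (R 4.3.3), tested on simulated data, which compare count columns and not conditions. Python 3.11.15, pandas 2.3.3, SciPy 1.17.1 and Biopython 1.88 were used.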

Additional observations from a re-analysis of the deposited data

Results flagged for a closer look

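Ccnd3 drew attention because its log2 change had opposite signs in 2 groups set against the same G1E control. The change, with 1 scaled read added to each level, was 2.29 in GATA-1 WT cells and -2.41 in GATA-1 V205M cells. Each group is 1 sample and both share the control, so the difference between these changes was not tested.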

How the results depend on the processing

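Of 174 single values recomputed under other settings, 148 moved by less than their counting interval and 26 moved by more. Among the called values, 0 changed sign. The 148 and 26 compare the size of a move with the interval, not whether the new value lay inside it. With 10 scaled reads added, Ccnd1 in GATA-1 2RA cells against each other group counted as moved by less. Its log2 changes nonetheless fell below the log2 of the lower ends of their intervals. Of the 24 member values, 18 were past 2-fold with 1 scaled read added to each level, and 15 with 10 added. Size factors from total reads or from TMM were taken over the 1157 genes with a level in every group, which are all listed genes. In GATA-1 WT against the control they shifted the median of those genes by -0.74 and -0.65 on the log2 scale. With TMM, unlisted Ccnd3 in GATA-1 2RA against the control was -0.07, beside 0.34 with the authors' size factors. With column 2 of the control alone, unlisted Cdk6 in that pair was 0.19, beside -0.04. With column 2 of GATA-1 V205M alone, unlisted Ccnd1 against the control was 0.28, beside -0.26.

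A limit of 4-fold in place of 2-fold left 590, 310 and 325 genes listed in the GATA-1 WT, 2RA and V205M groups against the control, 363 and 385 in GATA-1 2RA cells and GATA-1 V205M against GATA-1 WT, and 304 in GATA-1 2RA against GATA-1 V205M, which follows from the stricter limit. For the 101 pathway genes these counts were 10, 0, 1, 7, 6 and 1, and 1 member was left in GATA-1 V205M against the control. With the longest transcript, Ccnd3 made up 83.0% of the D-type cyclins per kb in GATA-1 WT cells, 19.4% in GATA-1 2RA cells, 3.36% in GATA-1 V205M cells and 20.9% in the control, and with the longest protein-coding transcript, chosen after seeing the data, 89.9%, 30.5%, 5.97% and 32.6%. The edgeR fits ran only on 1157 to 2040 genes that are in the authors' tables, so calling the listed members again is no independent check. They also called Cdk6 in GATA-1 V205M against GATA-1 WT (adjusted p 5.98e-07 over count columns). GATA-1 WT and GATA-1 2RA have 1 count column each, so their fits took the spread from columns of other groups and assume that they vary alike. The fit of these 2 against each other was chosen after seeing the data. With 10 scaled reads added, 8 of the 12 nearest profiles were shared. No paired analysis was possible because each group has 1 sample. Depth limits Ccnd1 most, with 5 reads or fewer outside GATA-1 2RA.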
